A study of Homo sapiens with 2 samples.

Results

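The genes described here are SARNP and 9 other genes that carry messenger RNA out of the nucleus, namely THOC1, THOC2, THOC5, THOC7, NXF1, NXT1, DDX39A, DDX39B and ALYREF. RNA came from PC3, a cell line established from a prostate cancer metastasis, after knockdown of the transcriptional coactivator SUB1. The 10 genes are 10 of 19218 genes with a measurable probe, and they were found by the gene name printed on the array, as the current symbol or an older one (CIP29 for SARNP, BAT1 for DDX39B, DDX39 for DDX39A, THOC4 for ALYREF). Names were checked against the RefSeq accession of the probe, and no older name pointed to another gene. The dimmer probes of THOC2 and THOC5 carry no RefSeq accession and were matched by symbol only. The set was chosen by the SARNP log2 ratios themselves, selected on a signal that was low with 1 SUB1 siRNA only. Its values on both arrays, and those of the other genes in the same contrasts, are therefore given as a description.

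PC3 cells were transfected with either of 2 SUB1 siRNA duplexes or with Non-T siRNA, transfected again 24 h later, and harvested 72 h after the first transfection. Each siRNA was measured on 1 dual-colour Agilent array, with RNA of SUB1 siRNA-treated cells in Cy5 and RNA of Non-T siRNA-treated cells in Cy3. Neither the labels nor the methods say whether both arrays carried the same Non-T RNA. Dyes were not swapped, so for a ratio that both arrays share, knockdown and dye bias cannot be told apart, and 1 array per siRNA gives no replicate error for a single siRNA. Values are log2 ratios, SUB1 siRNA divided by Non-T siRNA, after loess on each array, so -1 is a 2-fold lower signal. In such bulk RNA, fewer cells of a kind and less RNA per cell cannot be told apart.

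Messenger RNA is packed for export while it is still being made. The THO complex (THOC1, THOC2, THOC5 and THOC7 among its subunits) travels with RNA polymerase II and recruits the RNA helicase DDX39B, also called UAP56, to form the TREX complex. DDX39B, or its close paralog DDX39A (URH49), loads the adaptor ALYREF and the SAP domain protein SARNP (CIP29) on the RNA. ALYREF then hands the RNA to the export receptor, a heterodimer of NXF1 and NXT1, which passes it through the nuclear pore.

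The arrays held 41000 gene probes, of which 25673 passed the filter on dim probes (clear of background in 1 or both channels of each array), and no gene spot was saturated. At the brightest probe of SUB1, the targeted gene, 10.2% of the Non-T signal was left with siRNA 1 and 10.4% with siRNA 2 (log2 ratios -3.30 and -3.26), and over its 4 probes between 7.42% and 28.6%, and between 8.85% and 33.8%. The technical error within an array was taken from 209 probes with 10 spots each, whose log2 ratios had a median SD of 0.078 with siRNA 1 and 0.074 with siRNA 2. Of the markers checked, all 5 epithelial or PC3 markers were above background, as were 3 of 4 markers of other cell types (CD68, COL1A1 and PECAM1), while the probes of PTPRC were not. The KLK3 probe for the RefSeq transcript NM_001648 was not above background, whereas another KLK3 probe, for AF335478, was bright in all channels.

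SARNP was low in the siRNA 1 cells and was not low in the siRNA 2 cells, and its probes gave the same picture. The gene has 2 probes, both for NM_033082 and each spotted once per array. On the genome build of the array design (hg18), the brighter probe lies at chr12:54437532-54437591, a stretch of 60 bases. The other is placed at chr12:54480939-54483726, a span of 2788 bases. The exons of that build were not annotated here. The raw Cy3 and Cy5 intensities of the brighter probe were 6498 and 1732 on the first array (siRNA 1), against 5104 and 7461 on the second (siRNA 2), beside a local background of 48.0 to 58.5. Those of the second probe were 1448 and 413, against 1218 and 1651. In both probes the Cy5 signal of siRNA 1 was the only low value of the 4.

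After normalization within and between arrays, the brighter SARNP probe had a log2 intensity of 12.71 in Non-T cells and 10.48 in siRNA 1 cells on the first array, and 12.60 in Non-T cells and 12.77 in siRNA 2 cells on the second. For the other probe these values were 10.50, 8.42, 10.50 and 10.65. Between the arrays, the Non-T signal of the probes differed by -0.10 and -0.0027, whereas siRNA 2 exceeded siRNA 1 in Cy5 signal by 2.29 and 2.23. The difference between the siRNAs thus lay in the Cy5 channel. Across all genes, the Non-T signals of the arrays differed with an SD of 0.12 and the siRNA signals with an SD of 0.31.

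**Figure D1:**
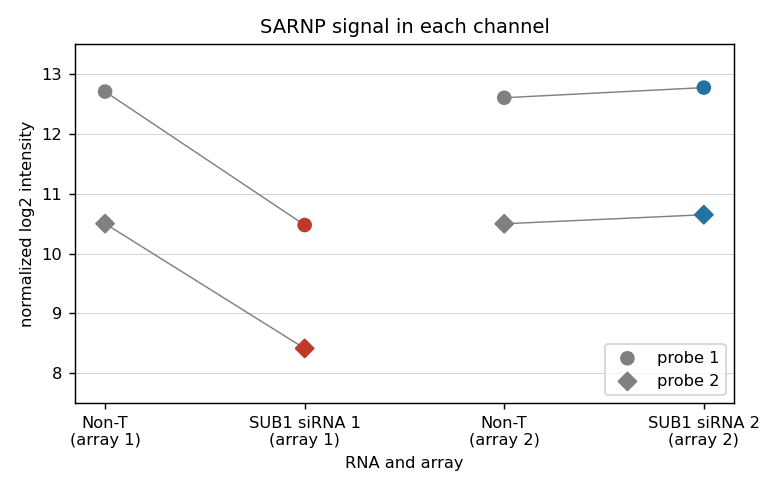
Normalized log2 intensity (vertical axis) of the 2 SARNP probes in the 4 RNA and array combinations (horizontal axis). Circles are the brighter probe, diamonds the other one, and lines join the channels of an array. The probes sit at 10.48 and 8.42 in siRNA 1 cells, against 12.71 and 10.50 in the Non-T cells of that array, and within 0.17 of Non-T in siRNA 2 cells.

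At the brighter SARNP probe these signals gave log2 ratios of -2.23 (siRNA 1) and 0.17 (siRNA 2), and at the other probe -2.08 and 0.15. The signal left with siRNA 1 was 21.3% and 23.6% of that in Non-T cells, a 4.69-fold and a 4.24-fold lower value, and with siRNA 2 it was 112% and 111%. The probes differed from each other by 0.14 with siRNA 1 and by 0.018 with siRNA 2. Among all 19218 genes, SARNP ranked 2nd from the lowest with siRNA 1, next to SUB1 itself, whereas 72.6% of genes had a lower ratio than SARNP with siRNA 2. Subtracting the siRNA 1 ratio from the siRNA 2 ratio gave 2.40, and no other gene had a higher positive value. In absolute terms 0.0052% of all genes had a larger difference, with a maximum of 2.58. These ranks follow from the choice of the gene and carry no test.

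The 9 other genes all lay within 2-fold of Non-T with both siRNAs, between -0.51 and 0.28 with siRNA 1 and between -0.57 and 0.34 with siRNA 2. Of the 10 genes, 1 (SARNP) was at least 2-fold lower with siRNA 1, beside 0.609% of all genes, and 0 with siRNA 2, beside 1.07%. None was at least 2-fold higher, beside 0.203% of all genes with siRNA 1 and 0.614% with siRNA 2. Since SARNP chose the list, nothing is read from its count. Of 15 probes for the 10 genes, 14 were kept, and the one left out was the second probe of THOC5, which was not well above background in any channel.

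**Figure D2:**
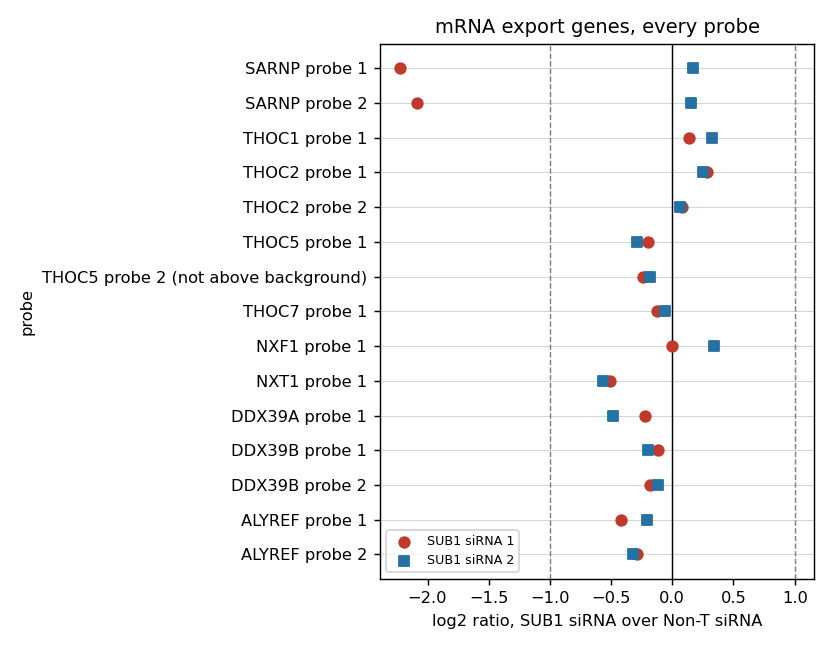
Log2 ratio against Non-T siRNA (horizontal axis) for each of the 15 probes (vertical axis, the brightest probe of a gene first). Red circles are siRNA 1, blue squares siRNA 2, and dashed lines mark a 2-fold change. Only the SARNP probes with siRNA 1, at -2.23 and -2.08, lie beyond a dashed line.

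Among the subunits of the THO complex, THOC1 and THOC2 were slightly higher and THOC5 slightly lower with both siRNAs. For THOC1 (NM_005131, probe at chr18:216842-216901 on hg18), a core subunit, the ratios were 0.13 with siRNA 1 and 0.32 with siRNA 2. THOC2 (NM_001081550), a large scaffold subunit, had 0.28 and 0.25 at its brighter probe (chrX:122562167-122562226) and 0.083 and 0.063 at a dimmer one that was above background in Cy5 only, a gap between probes of 0.20 and 0.18. THOC5 (NM_001002878, probe at chr22:28246023-28246082) had -0.20 and -0.29, and its probe below background -0.24 and -0.19. THOC7 (NM_025075, chr3:63795882-63796041) had -0.13 and -0.057, and its sign turned when arrays were centred on the median in place of loess, to 0.11 and 0.19. Relative to the median of all genes under that setting, THOC7 stood at -0.017 and 0.069. The ratios of THOC7 were of the size of the gaps between probes of 1 gene.

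The helicases and the adaptor were lower with both siRNAs, by less than 2-fold. DDX39A (NM_005804, chr19:14380888-14380947) stood at -0.22 with siRNA 1 and -0.49 with siRNA 2. Its normalized log2 intensity was 12.73 in the Non-T cells of the first array and 12.74 in those of the second, against 12.50 in siRNA 1 and 12.25 in siRNA 2 cells. DDX39B (NM_004640) had -0.12 and -0.20 at its brighter probe (chr6:31606187-31606574) and -0.18 and -0.12 at the other. As paralogs of similar sequence, DDX39A and DDX39B may share signal on the array. ALYREF (NM_005782) had -0.42 and -0.21 at its brighter probe (chr17:77439060-77439119) and -0.29 and -0.32 at the other, so that the order of the siRNAs was not the same in its probes. With median centring DDX39A had 0.081 with siRNA 1 and -0.17 with siRNA 2, DDX39B had 0.089 and 0.0035, and ALYREF had -0.19 and 0.038. Relative to the median of all genes under that setting, each of these genes stayed lower with both siRNAs. DDX39A then stood at -0.046 and -0.29, DDX39B at -0.038 and -0.12, and ALYREF at -0.31 and -0.082. Thus the size of the lower values of this group, and their side of 0, depended in part on the loess curve.

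The partners of the export receptor had unlike values. NXT1 (NM_013248, chr20:23283235-23283294), the small partner that stabilizes NXF1, was lower with both siRNAs, at -0.51 with siRNA 1 and -0.57 with siRNA 2, or 70.1% and 67.6% of the Non-T signal. Its normalized log2 intensity was 12.19 and 12.28 in the Non-T cells of the arrays, against 11.68 in siRNA 1 and 11.71 in siRNA 2 cells, so both knockdown samples lay below both controls. It had the lowest mean ratio after SARNP, and it stayed below 0 under each of 10 ways of processing, at -0.24 (siRNA 1) and -0.27 (siRNA 2) when closest to 0. NXF1 (NM_006362, chr11:62318454-62319007), which contacts the nuclear pore, had -0.0021 with siRNA 1 and 0.34 with siRNA 2. Its normalized log2 intensity was 7.92 in the Non-T cells of both arrays and in siRNA 1 cells, and 8.26 in siRNA 2 cells. With siRNA 1 the sign of NXF1 turned under 3 of the other ways of processing, up to 0.13 with median centring. Relative to the median of all genes under that setting, this NXF1 value was 0.0032. Each of the pair has 1 probe spotted once.

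The gap between the siRNAs was largest for SARNP. After SARNP came NXF1, with siRNA 2 minus siRNA 1 at 0.34, and 20.1% of all genes had a larger absolute difference. DDX39A followed with -0.26, with 30.5% of genes above it, and ALYREF with 0.21, THOC1 with 0.19, DDX39B with -0.087, THOC5 with -0.085, THOC7 with 0.070, NXT1 with -0.052 and THOC2 with -0.037. The differences from DDX39B to THOC2 were within or near the technical SD among spots. An absolute difference of at least 1 was found in 1.26% of all genes. Over the 12 kept probes of the other 9 genes, the Non-T signal differed between arrays by -0.15 to 0.17 and the siRNA signal by -0.25 to 0.34.

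Over the 9 genes other than SARNP, the median log2 ratio was -0.13 with siRNA 1 and -0.20 with siRNA 2, beside 0.024 and 0.023 over all genes, and 7 of the 9 were below 0 with siRNA 1 and 6 with siRNA 2, beside 45.9% and 46.5% of all genes. With median centring 3 of the 9 were below 0 with each siRNA, beside 31.5% and 32.8% of all genes. Median centring moved the median of all genes to 0.13 and 0.12, and relative to that the median of the 9 genes was then -0.038 and -0.082, against -0.15 and -0.23 with loess. The mean of both siRNAs was tested against 0 in limma, with Benjamini-Hochberg adjustment over all genes, and 0 of the 9 genes passed an adjusted p of 0.05. The lowest adjusted p was 0.120 for NXT1 (mean ratio -0.54, standard error 0.095). Without adjustment, 3 genes were lower (NXT1, DDX39A and ALYREF) and 1 higher (THOC2) at a p under 0.05, while 9.9% of all genes were lower and 10.9% higher at that level. SUB1 was the only gene of the array past the adjusted threshold (adjusted p 0.0260), 0.0052% of genes. This test takes the siRNAs as 2 samples of 1 knockdown and leaves out the spread of the control.

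The 5 genes whose pair of ratios lay closest to that of SARNP were picked by Euclidean distance over the 2 arrays. That they were low with siRNA 1 and near Non-T with siRNA 2 follows from this choice. NARS1 (NM_004539), the cytosolic asparaginyl-tRNA synthetase, was nearest at a distance of 0.25, with -2.14 and -0.068. ARL6IP6 (NM_152522) had -1.83 and -0.052 at a distance of 0.45. HSD17B10 (NM_004493), a mitochondrial dehydrogenase that is also a subunit of mitochondrial RNase P, had -1.79 and -0.19 at 0.57. A probe without a gene symbol, A_24_P307368, had -1.67 and -0.086 at 0.61. ANXA2P1 (NR_001562), a pseudogene that can share signal with its parent ANXA2, had -1.92 and -0.38 at 0.63. The probes of ANXA2 itself ranged from -1.69 to -1.37 with siRNA 1. In all, 90 genes, or 0.468%, were at least 2-fold lower with siRNA 1 and less than 2-fold changed with siRNA 2. None of the 5 belongs to the mRNA export lists used here, and a likeness over 2 arrays of a shared type of control says nothing of shared function.

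The genes beside SARNP on chromosome 12 did not share its values. In the order of the RefSeq gene table (GRCh38.p14, used for order only), the 3 measured genes before it are GDF11 (-0.17 with siRNA 1 and -0.23 with siRNA 2), CD63 (0.050 and 0.12) and RDH5 (-0.46 and -0.28). The 3 after it are ORMDL2 (-0.067 and -0.13), DNAJC14 (-0.100 and -0.12) and MMP19 (-0.085 and 0.044). GDF11 overlaps SARNP in that table, and its ratio with siRNA 1 was -0.17, against -2.23 for SARNP. In limma, the lowest adjusted p of the 6 was 0.171, for RDH5.

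**Figure D3:**
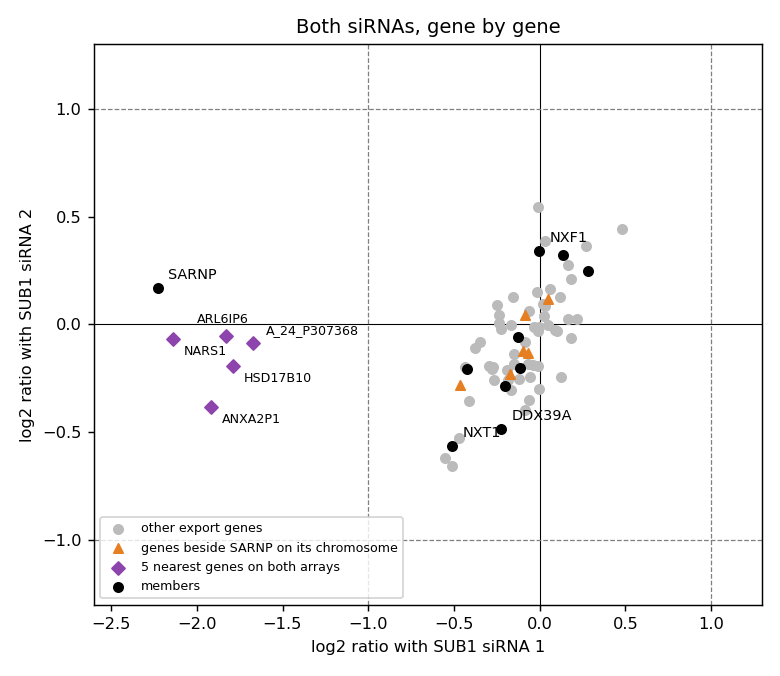
Log2 ratio with siRNA 1 (horizontal axis) against that with siRNA 2 (vertical axis) for the 10 genes (black), 54 other export genes (grey), the 6 genes beside SARNP on its chromosome (orange triangles) and the 5 genes nearest to SARNP (purple diamonds). Dashed lines mark a 2-fold change. SARNP and its 5 nearest genes lie left of -1, and every other export gene lies between the dashed lines. Both axes share the type of control, so the spread along the diagonal is not a measure of likeness between the siRNAs.

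The rest of the export pathway was taken from a list of 55 further genes, of which 54 were measured. NXF2, a paralog of NXF1, was on the array but not above background. None of the 54 was at least 2-fold lower, beside 0.609% of all genes with siRNA 1 and 1.07% with siRNA 2. None was at least 2-fold higher either, beside 0.203% and 0.614%. With shares this small a list of 54 can be left without a call, so nothing is read from these counts. The ratios of the 54 genes lay between -0.55 and 0.48 (siRNA 1) and between -0.66 and 0.55 (siRNA 2), with medians of -0.063 and -0.048. The ratio was below 0 for 37 genes with siRNA 1 (68.5%) and 35 with siRNA 2 (64.8%), beside 45.9% and 46.5% of all genes. It was below 0 for 16 (29.6%) and 14 (25.9%) under median centring, beside 31.5% and 32.8% of all genes. With median centring the medians became 0.13 and 0.14, within 0.024 of the median of all genes, so the side of 0 on which the list fell depended on the scaling. In limma 0 of the 54 genes passed an adjusted p of 0.05. Without adjustment, 6 were lower and 2 higher at a p under 0.05, or 8 of 54 beside 20.8% of all genes.

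**Figure D4:**
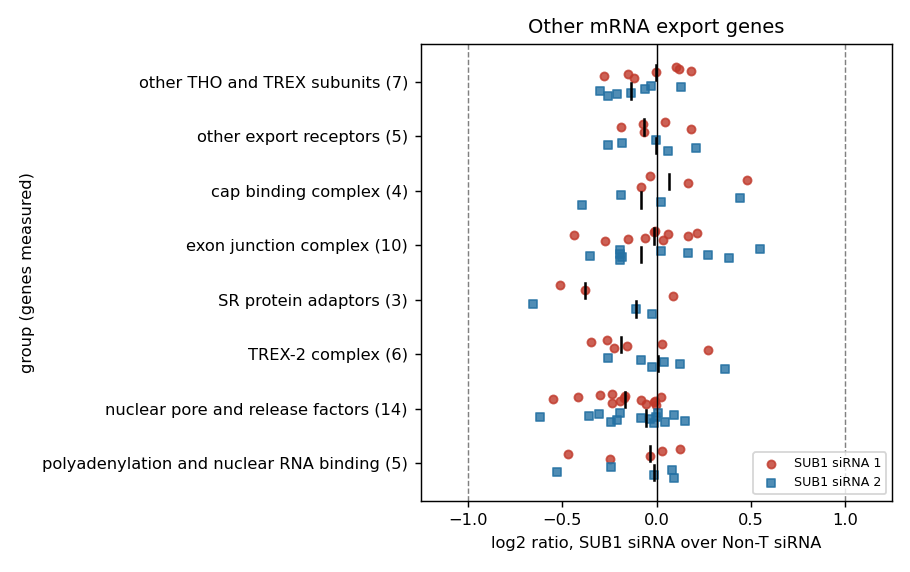
Log2 ratio against Non-T siRNA (horizontal axis) for the 54 other export genes in 8 groups (vertical axis, with the number of genes measured). Red circles are siRNA 1, blue squares siRNA 2, black ticks the group medians and dashed lines a 2-fold change. All points lie between -0.66 and 0.55.

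Group by group, the genes with the largest mean ratio stayed under 2-fold. Of the 7 other THO and TREX subunits, THOC6 (-0.28 with siRNA 1 and -0.21 with siRNA 2) was farthest from 0. Of the 5 other receptors measured, NXT2, a paralog of NXT1, had -0.19 and -0.26. In the cap binding complex, which marks the 5′ end of the RNA for export, NCBP3 had 0.48 and 0.44, the highest mean of the list. With Feature Extraction's processed signals this dim probe had 1.71 and 1.06, and that of NXF5, a further paralog of NXF1, had 1.26 and 1.65, in place of 0.18 and 0.21.

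In the exon junction complex, which splicing leaves on the RNA, the core subunit MAGOH had 0.034 and 0.39, and UPF3B, which links the complex to nonsense-mediated decay, had -0.010 and 0.55. For both, siRNA 2 exceeded siRNA 1, by 0.35 for MAGOH and 0.56 for UPF3B, whose difference was the largest of the list. RNPS1 of the same group had -0.44 and -0.20. The sign of UPF3B with siRNA 1 turned under 5 of the other ways of processing, and that of MAGOH with siRNA 1, RNPS1 with siRNA 2 and CPSF7 with siRNA 1 under 1 each. Of the SR protein adaptors, SRSF7, a splicing factor that also binds NXF1, had -0.51 and -0.66. In the TREX-2 complex, which tethers active genes to the pore, the scaffold MCM3AP had 0.27 and 0.36.

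Of the 14 nuclear pore and release factors, 13 had a ratio below 0 with siRNA 1 and 10 with siRNA 2. These are 92.9% and 71.4%, beside 45.9% and 46.5% of all genes, and the group medians were -0.17 and -0.056. With median centring 6 of the 14 (42.9%) were below 0 with each siRNA, beside 31.5% and 32.8% of all genes. NUP155, a scaffold nucleoporin, had the lowest mean, at -0.55 and -0.62, and the lowest adjusted p of the whole list (0.115 in limma). DDX19A and DDX19B, near-identical helicases that release the RNA on the cytoplasmic side and can share signal on the array, had -0.17 and -0.30 and -0.30 and -0.19. Among polyadenylation factors, NUDT21, a subunit of cleavage factor I, had -0.47 and -0.52, whereas its partner CPSF7 had 0.13 and -0.24.

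The SARNP value with siRNA 1, which chose the genes, stayed low under each way of processing tried. Changing the filter on dim probes could not move it, because the SARNP probes were above background in every channel. Over 9 other ways to process the spots, these filters included, the value ran from -2.23 to -1.97, and with siRNA 2 from 0.13 to 0.50. The highest value of each range came from median centring, and relative to the median of all genes under that setting SARNP stood at -2.09 and 0.38.

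**Figure D5:**
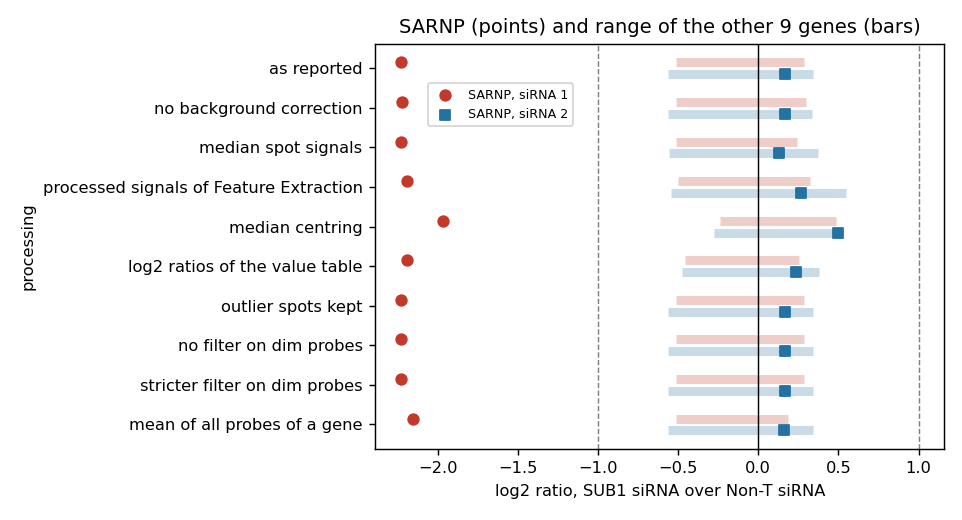
Log2 ratio against Non-T siRNA (horizontal axis) under each way of processing (vertical axis). Points are SARNP (red circles siRNA 1, blue squares siRNA 2), bars run from the lowest to the highest of the other 9 genes, and dashed lines mark a 2-fold change. SARNP with siRNA 1 stays between -2.23 and -1.97, left of every bar, while with siRNA 2 it lies within the bars except at 0.50 with median centring, just past the bar's end.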

How the data were processed

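Dual-colour arrays of 1 slide were used, 1 for each SUB1 siRNA (Cy5) against Non-T siRNA (Cy3). Per the file headers, the authors quantified spots with Feature Extraction 9.5.1.1, and the deposited files give raw and processed intensity per spot, before further normalization, with flags. A deposited table holds the authors' log2 ratios after loess on each array. It followed Cy5 over Cy3 (Pearson r across probes 0.958 and 0.970 with recomputed ratios) and served as an alternative. Feature Extraction's own log ratios and p-values were not used.

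Here, mean spot signals were corrected by normexp (offset 50), control spots dropped, and log2 ratios normalized within arrays with limma 3.58.1 (R 4.3.3; loess, span 0.3). Spots with outlier flags (112 and 100) got no weight, and repeat spots were averaged. Probes were kept if, on each array, at least 0.5 of their spots passed Feature Extraction's background test in Cy3 or in Cy5. The brightest probe stood for a gene. Normalized intensities per channel also had Aquantile between arrays. Of 19218 genes, 13129 were named through RefSeq (GRCh38.p14) and 6089 kept the array's name.

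Calls were an absolute fold change of 2, as in the paper's methods, and limma with eBayes over both arrays. The fit was tested on simulated data in which all genes had the same spread, so that test does not show how the fit does on these arrays. The genes and lists were chosen with earlier results of these data known. Named genes were every probe of the 10 genes, SUB1, in the longer list each gene past 2-fold, the largest mean of each group and the 3 largest differences between siRNAs, the 5 genes nearest to SARNP and 3 neighbours on each side. The number of arrays limits the precision, and p-values measure only the spread between these samples.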

Additional observations from a re-analysis of the deposited data

Results flagged for a closer look

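The SARNP log2 ratios of the siRNAs had opposite signs and 1 of them was past 2-fold, so that siRNA 2 minus siRNA 1 was 2.40 (-2.23 with siRNA 1 and 0.17 with siRNA 2). Each siRNA has 1 array, and the difference was not tested.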

How the results depend on the processing

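All alternatives were planned. Of 182 comparisons of 20 results with 11 alternatives, 159 stayed within the technical SD among spots or within 1.5 times a count, and 23 moved. Many of the 159 were counts of 0 or 1 in the short gene lists that did not change, so the tally is no general measure of robustness. The only log2 values past 2-fold were the SARNP ratio with siRNA 1 and the SARNP difference, which chose the genes. Neither changed sign, but 4 medians did, with median centring. The cause was not tested. Median centring gave SARNP ratios of -1.97 and 0.50, medians of 0.085 and 0.11 for the 10 genes and of 0.13 and 0.14 for the other export genes. At 2-fold it called 137 genes up and 56 down for siRNA 1, then 266 up and 101 down for siRNA 2, in place of 39, 117, 118 and 205, so that 71.0% and 72.5% of called genes were higher in place of 25% and 36.5%. Feature Extraction's processed signals gave SARNP 0.27 with siRNA 2, 778 genes up and 297 down for siRNA 1, then 997 and 471 for siRNA 2, of which 72.4% and 67.9% were higher, and 2 other export genes (NCBP3 and NXF5) at least 2-fold higher with each siRNA. The share of higher genes was 36.7% and 47.4% with the authors' log2 ratios. In limma, 1 gene passed as reported, 0 with no background correction, median spot signals, median centring, processed signals or the authors' log2 ratios (4079, 4015, 5710, 3890 and 4141 at an unadjusted p under 0.05), and 114 without a filter on dim probes. Each log2 ratio pairs the SUB1 siRNA RNA and the Non-T RNA of 1 array, and limma used these ratios. No pairing beyond that was possible, because the labels give no replicate numbers and each siRNA has 1 array. Leaving out an array leaves no residual degrees of freedom, so the value is that of the other siRNA alone. Dim probes limit the ratios, as for the second THOC5 probe.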
